A study of Mus musculus with 12 samples.

Results

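The 10 genes described here encode the MHC class I and class II antigen presentation machinery of the mouse: H2-K1, H2-D1, B2m, Tap1, Tap2, Psmb8 and Psmb9 for class I, and Cd74, H2-Aa and H2-Ab1 for class II. They were picked by name from a table of 44345 genes, and all 10 were found and passed the filter on low values. Earlier results of these data were known when they were picked. RNA came from L4 to L6 dorsal root ganglia (DRG, which hold the cell bodies of the sensory neurons of the sciatic nerve) of C57BL/6 mice aged 6 to 8 weeks. The PBS group had daily gavage of phosphate-buffered saline for 10 days, and the IPA group had 20 mg/kg of indole-3-propionic acid, a product of bacterial tryptophan breakdown in the gut. In the PBS.SNC and IPA.SNC groups the same gavage was followed by a crush of the sciatic nerve, and IPA was given for 3 more days. Whether vehicle gavage also went on after the crush is not clear from the labels. Each group had 3 libraries and each library pooled the DRG of 2 mice, so the spread given below is that between pools. No group had a sham operation, so the crush comparisons include the surgery.

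Class I molecules are found on most nucleated cells and show peptides from inside the cell to cytotoxic T cells. The immunoproteasome cuts the peptides, the TAP transporter carries them into the endoplasmic reticulum, and there they bind a heavy chain paired with beta-2-microglobulin. Class II molecules are made mainly by macrophages, dendritic cells and B cells, and show peptides taken up from outside to helper T cells. Interferon gamma is a known inducer of both pathways.

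Promoter stretches are shown for 4 of the genes, so that known interferon and class II motifs can be seen in their place; whether they bear on the values below was not tested. RefSeq promoter windows (GRCm38.p6, 250 bases before to 50 after the start) were at hand for 7 of the 10 genes, and Tap2, Cd74 and H2-Ab1 were not matched. A stretch of 180 bases before the H2-K1 start, minus strand, chr17:34000348-34000527, is printed with 3 motifs in capitals: GGGATTCCC (a kappa B motif), TTTCNCTT (part of an interferon-stimulated response element) and ATTGG (the Y box letters read on the other strand).
H2-K1: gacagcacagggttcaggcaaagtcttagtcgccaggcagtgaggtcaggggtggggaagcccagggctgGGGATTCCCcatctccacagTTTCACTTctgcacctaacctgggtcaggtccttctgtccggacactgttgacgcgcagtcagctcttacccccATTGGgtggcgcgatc
The kappa B and TTTCNCTT letters lie side by side in H2-K1 (chr17:34000430-34000459, minus strand) and in H2-D1 (chr17:35262922-35262951, plus strand), and 29 of 30 bases are the same in both genes.
H2-K1 element: tgGGGATTCCCcatctccacagTTTCACTT
H2-D1 element: tgGGGATTCCCcatctcctcagTTTCACTT
Among all 32851 windows searched on both strands, GGGATTCCC was in 0.353% and TTTCNCTT in 7.66%. The B2m stretch (chr2:122147537-122147685, plus strand) holds TTTCNNTTT, an interferon regulatory factor motif, on the other strand, and ATTGG, both in capitals.
B2m: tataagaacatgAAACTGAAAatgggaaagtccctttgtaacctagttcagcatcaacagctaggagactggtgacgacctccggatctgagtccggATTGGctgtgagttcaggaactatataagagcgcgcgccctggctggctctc
The H2-Aa stretch (chr17:34287824-34287973, minus strand) holds TGACGTCA, a cyclic AMP response element of the kind found in the X box of class II promoters, and ATTGG.
H2-Aa: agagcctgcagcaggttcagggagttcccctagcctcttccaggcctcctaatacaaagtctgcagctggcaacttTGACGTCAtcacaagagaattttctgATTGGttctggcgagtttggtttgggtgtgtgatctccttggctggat
TTTCNNTTT was in 10.6% of all windows and TGACGTCA in 1.79%. The shorter TGACG, which TGACGTCA contains, was in 20.8% of all windows, and CCAAT, the Y box, was in 37.4%. Both were found in 6 of the 7 genes with a window, namely B2m, H2-Aa, H2-D1, H2-K1, Psmb9 and Tap1. These matches describe letters only, and binding was not measured.

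Of the 10 genes, 8 lie within the MHC on chromosome 17, B2m lies on chromosome 2 (122147686 to 122153083) and Cd74 on chromosome 18 (GENCODE M21, GRCm38). Psmb9 (34181987 to 34187764, minus strand) and Tap1 (34187553 to 34197225, plus strand) overlap at their starts, and Psmb8 (34197721 to 34201454) and Tap2 (34203527 to 34216321) follow on the plus strand. H2-Ab1 (34257689 to 34269419) and H2-Aa (34282744 to 34287823) lie further along, with H2-K1 (33996017 to 34000347) on one side and H2-D1 (35262730 to 35267499) on the other. Of all stretches of 75 bases in the transcripts of a gene, 9.97% in Psmb8 also occur in another gene's transcripts, with 8.27% in Tap2, 5.56% in H2-D1, 3.44% in Psmb9, 3.10% in H2-K1 and 2.40% in Tap1. B2m, Cd74, H2-Aa and H2-Ab1 had none. The libraries were directional, but whether the counting used strand is not given in the sources used here, so small parts of the Tap1 and Psmb9 values may be each other's.

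The libraries held 40938034 to 62501969 recovered reads. The deposited values behave as CPM (reads scaled to library size; 1 read was worth 0.0130 to 0.0199), with no gene length divided out. The crush labels held: Atf3, an injury-induced transcription factor, was 11.2 ± 1.03 in PBS and 518 ± 7.40 in PBS.SNC (SD, n = 3). The 12 sensory neuron markers had a summed value of 12515 to 14436. PBS.SNC replicate 1 stood apart from its group on the second principal component of all genes, at 23.6 against -5.04 and -1.29.

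Divided by the length in kilobases of the longest annotated transcript, the PBS levels ran over a wide range, with the light chain on top. B2m was at 122.3 ± 8.33 per kb (SD, n = 3) and the heavy chains H2-D1 and H2-K1 at 87.6 ± 10.1 and 35.3 ± 3.60. The class II genes were lower: Cd74 at 29.1 ± 5.49, H2-Ab1 at 15.1 ± 2.63 and H2-Aa at 6.30 ± 0.859. The transporter and immunoproteasome genes came last, with Tap2 at 3.14 ± 0.199, Psmb8 at 2.22 ± 0.385, Tap1 at 1.68 ± 0.184 and Psmb9 at 0.805 ± 0.0892. Of neighbours in this order, the library ranges of H2-K1 and Cd74 overlapped, as did those of Psmb8 and Tap1. The order depends on the length used, which was 3223 bases for H2-Aa and 1212 for H2-Ab1. Without that division H2-Aa was at 20.3 ± 2.77 and H2-Ab1 at 18.3 ± 3.19 in PBS, with overlap. Which transcripts the ganglia express was not tested. All values from here on are deposited values without a length correction and compare 1 gene between groups.

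The first question is what the crush did to these genes under vehicle. The heavy chain H2-D1 and the immunoproteasome subunit Psmb8 were higher 3 days after the crush, by 1.35-fold and 1.45-fold, and no member was lower. Changes are differences on the log2(value + 0.5) scale from limma, fitted over 15603 genes with Benjamini-Hochberg adjustment and called at an adjusted p under 0.05. By that rule 2 of 10 members were higher, against a background of 23.6% of all genes tested, and 0 of 10 were lower, against 24.4%. The share of members called higher was thus near that of all genes. In bulk tissue, more cells of a type and more RNA per cell cannot be told apart.

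H2-D1, which shows the peptide on the cell surface, was at 176, 168 and 208 in the 3 PBS libraries and at 241, 256 and 245 in PBS.SNC. All 3 crushed libraries were above all 3 intact ones, with a change of 0.43 ± 0.10 (SE; adjusted p = 0.00273). H2-K1, the other classical heavy chain of this strain, was at 61.0, 63.7 and 73.8 in PBS and at 83.8, 85.9 and 77.7 in PBS.SNC. Its groups did not overlap either, but the change of 0.32 ± 0.17 was not called (adjusted p = 0.135). The spread behind both tests is shared by all 4 groups, and 1 IPA library, described below, lay far from its group for most of these genes.

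B2m, the light chain common to all class I molecules, was at 98.9, 104 and 113 in PBS and at 148, 136 and 120 in PBS.SNC. Every crushed library was higher, with a change of 0.35 ± 0.17 (adjusted p = 0.0981). Psmb8, the beta 5i subunit, was at 4.93, 3.47 and 4.30 in PBS and at 6.78, 5.97 and 6.24 in PBS.SNC. Its change was 0.54 ± 0.20 (adjusted p = 0.0432), which passed narrowly. The Psmb8 call held in 15 of 26 alternative settings, and leaving out PBS replicate 2 gave 0.42 (adjusted p = 0.161). Without PBS.SNC replicate 1, the library that stood apart, it was 0.49 (adjusted p = 0.0839). The H2-D1 call held in all 26, at 0.29 to 0.52, and at 0.45 (adjusted p = 0.00346) without PBS.SNC replicate 1.

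Psmb9, the beta 1i subunit, was at 2.31, 2.07 and 2.58 in PBS and at 3.501, 3.849 and 3.237 in PBS.SNC. The groups did not overlap and the change was 0.52 ± 0.23, close to that of Psmb8 but not called (adjusted p = 0.0791). The transporter subunit Tap1 was at 5.88, 6.56 and 7.31 in PBS and at 6.98, 9.26 and 8.09 in PBS.SNC. These overlapped (0.28 ± 0.24, adjusted p = 0.353). Its partner Tap2 was at 11.2, 10.0 and 11.2 in PBS and at 10.3, 10.5 and 10.0 in PBS.SNC. Tap2 was the one member with an estimate below 0, at -0.068 ± 0.14 (adjusted p = 0.707).

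The 3 class II genes were not called. Cd74, the invariant chain that guards the class II groove, was at 34.2, 39.4 and 49.5 in PBS and at 51.2, 56.4 and 47.7 in PBS.SNC (0.34 ± 0.17, adjusted p = 0.121). H2-Aa, the alpha chain, was at 17.5, 20.4 and 23.03 and at 23.8, 24.1 and 21.7 (0.20 ± 0.17, adjusted p = 0.374). For H2-Ab1, the beta chain, the values were 16.1, 16.8 and 21.9 against 21.3, 22.9 and 20.6 (0.25 ± 0.18, adjusted p = 0.276). In all 3, PBS replicate 3 lay within the range of the crushed libraries. All 3 crushed libraries were above all 3 intact ones for 5 of 10 members, H2-K1, H2-D1, B2m, Psmb8 and Psmb9, against 25.4% of all genes.

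**Figure D1:**
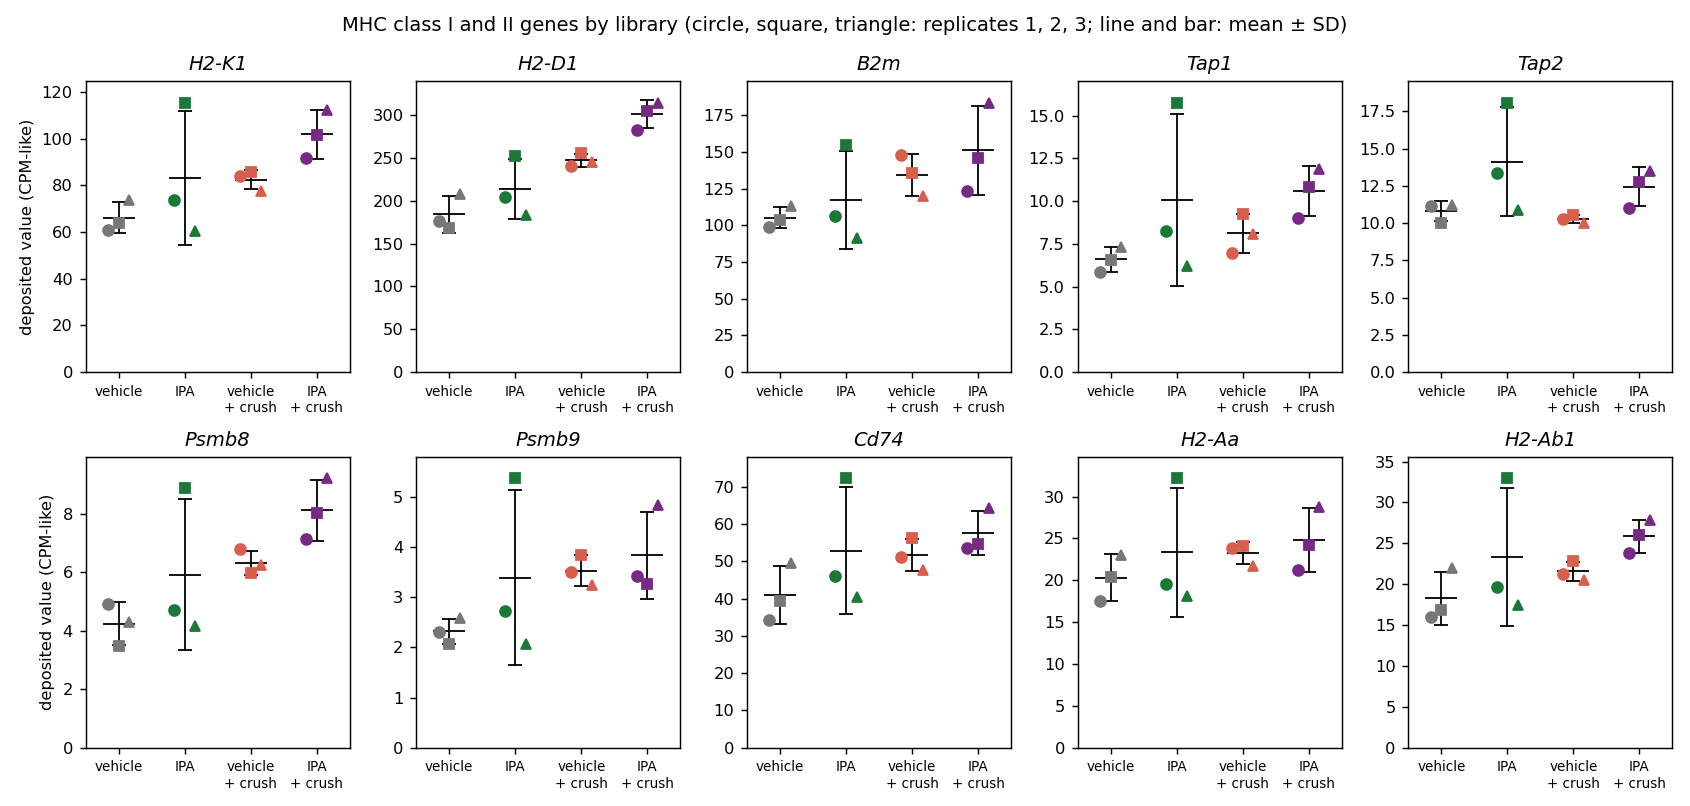
Deposited CPM-like value (y axis, from 0) of each of the 10 genes in every library of the 4 groups (x axis); circles, squares and triangles are replicates 1, 2 and 3, and the line and bar are the mean and SD of 3 libraries. In every panel the square of the IPA group lies above the other IPA libraries, and the triangle is the highest of the IPA.SNC group.

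Under IPA the crush was compared in the same way. Only H2-D1 was higher among the 10, against 21.2% of all genes called higher, and 0 of 10 were lower, against 22.5%. H2-D1 was at 204, 252 and 184 in IPA and at 283, 305 and 315 in IPA.SNC, a change of 0.51 ± 0.10 (1.42-fold, adjusted p = 0.000926). Its call held in all 26 alternatives, at 0.41 to 0.63. H2-D1 was also the one member whose crushed libraries were all above the intact ones, against 27.2% of all genes. For Psmb8 the change was 0.49 ± 0.20 (adjusted p = 0.0676), and for Psmb9 it was 0.23 ± 0.23 (adjusted p = 0.446). Array weights called 4 of 10, against 33.7% of all genes. Estimates of the other 7 ran from -0.15 (Tap2) to 0.38 (B2m).

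These numbers turned on IPA replicate 2, singled out after its values were seen. In that library H2-K1 was at 115, against 73.6 and 60.4 in IPA replicates 1 and 3. Tap1 was at 15.8 there, against 8.22 and 6.19, and was also above every crushed library. B2m was at 155 against 106 and 91.0. Replicate 2 was the highest IPA library for 10 of 10 members, where it was the highest for 37.6% of all genes. It was above all 3 PBS libraries for 10 of 10 members, against 33.8% of all genes, and above all 6 crushed libraries for 7, against 31.8%.

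The excess of replicate 2 over the mean of the other two IPA libraries, on the log2 scale, was 1.09 for Tap1, 1.03 for Psmb9 and 0.93 for Psmb8. It was 0.82 for H2-Ab1, 0.79 for H2-K1, 0.75 for H2-Aa, 0.74 for Cd74, 0.65 for B2m, 0.56 for Tap2 and 0.38 for H2-D1. The median of all genes was 0.0090, and only 0.103% of genes exceeded Tap1 (2.13-fold). Replicate 1 lay within the range of the PBS libraries for 7 members, against 45.4% of all genes, and replicate 3 for 8, against 48.5%.

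Among other genes of these pathways, IPA replicate 2 was the highest IPA library for 13 of 16 tested genes of the interferon gamma axis, 10 of 11 other class I genes and 7 of 10 genes for peptide supply and loading. It was the highest for 7 of 11 other class II genes and for 1 of 9 constitutive proteasome genes, beside the 37.6% of all genes. The median excess over the other 2 libraries was 0.52, 0.23, 0.15, 0.28 and -0.050 in these lists. That was below the 0.79 of the class I and 0.75 of the class II members. Outside these pathways, replicate 2 was highest for 6 of 7 endothelial, 8 of 14 macrophage and 5 of 7 dendritic cell markers. Their median excess was 0.17, 0.30 and 0.20, and 3 of 3 costimulation genes had 0.45. For satellite glia and Schwann markers it was highest for 5 of 9 (0.027), and for sensory neuron markers 5 of 12 (0.010). Gbp2, an interferon-inducible GTPase, was at 27.6 in replicate 2 against a lowest IPA value of 6.05. Other genes, chosen after their values were seen, are also set against their lowest IPA value. Nlrc5 (the class I transactivator) was at 6.64 against 2.45, and Cxcl9 (a chemokine induced by interferon gamma) at 2.51 against 0.171. The class I gene H2-Q7 was at 6.11 against 1.88, and Ciita (the class II transactivator) at 2.85 against 1.44. The log2 excess of replicate 2 over the mean of the other IPA libraries was 1.87 for Gbp2, 1.11 for Nlrc5 and 1.98 for Cxcl9. It was 1.35 for H2-Q7 and 0.54 for Ciita. Ifng itself was at 0.0151 at most in the IPA libraries, which is 1 read.

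Markers of immune cells were summed in the same libraries. The macrophage summed value over 14 genes was 104, 117 and 85.0 in IPA replicates 1 to 3, and 85.1 to 111 in PBS. The T and NK cell sum was 3.47 in replicate 2 against 2.39 and 2.33, and the B cell sum was 3.99 against 2.76 and 3.17. Lck and Cd4 had the highest IPA means of the T and NK list, at 1.28 and 0.683. The part of these cells in the high values was not tested. Replicates 1 to 3 had a mean log2 level over the interferon gamma axis of 3.65, 4.15 and 3.37.

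**Figure D2:**
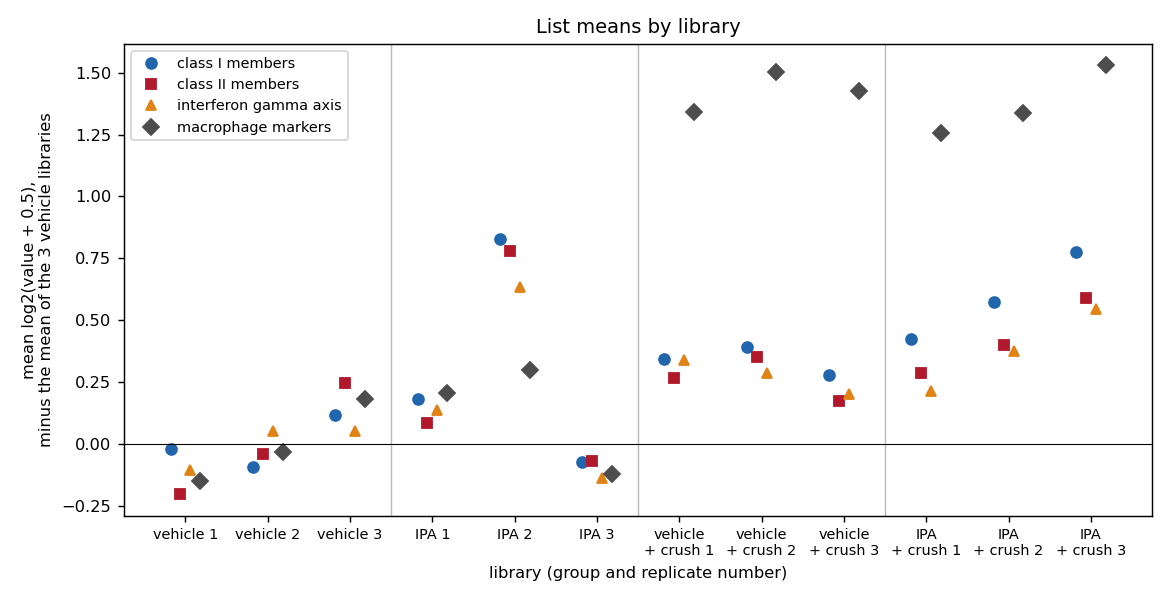
Mean log2(value + 0.5) of 4 gene lists in each of the 12 libraries, minus the mean of the PBS libraries (y axis, log2). IPA replicate 2 is high for the class I and class II members and for the interferon gamma axis, while the macrophage markers separate crushed from intact libraries.

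Without IPA replicate 2, the crush calls among the members were more numerous. Under IPA 9 of 10 were then higher, against 19% of all genes: all but Tap2. For class I the changes were 0.80 for Psmb8 (adjusted p = 0.000496), 0.63 for H2-D1, 0.60 for H2-K1 (adjusted p = 0.000567), 0.60 for B2m (adjusted p = 0.00388), 0.57 for Psmb9 (adjusted p = 0.0119) and 0.53 for Tap1 (adjusted p = 0.0149). For class II they were 0.47 for H2-Ab1 (adjusted p = 0.00674), 0.41 for Cd74 (adjusted p = 0.0264) and 0.37 for H2-Aa (adjusted p = 0.0311). Tap2 was at 0.034. Under vehicle 6 of 10 were higher, against 22.8%, with H2-K1 (adjusted p = 0.0133), B2m (adjusted p = 0.0310), Psmb9 (adjusted p = 0.00904) and Cd74 (adjusted p = 0.0287) joining H2-D1 and Psmb8. The vehicle estimates do not contain that library, so they were the same as before and only the shared spread was smaller. A library left out because it was high among intact samples raises the crush estimates under IPA by construction, and these counts are a description. With IPA.SNC replicate 3 also left out, an alternative added after seeing the data, 6 of 10 members were higher in each crush comparison, against 23.6% under vehicle and 17.7% under IPA.

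The second question is whether IPA changed these genes without injury. All 10 estimates were above 0, from 0.12 (B2m) to 0.48 (Tap1), but limma called none of them (adjusted p = 0.408 to 0.722). The median of all genes was 0.0089. The 10 genes moved together from library to library, so their signs are not separate observations. The background was 0% of all genes, and edgeR and DESeq2 on the recovered reads also called 0 of 10. At an unadjusted p under 0.05 there was 1 of 10, Tap2, against 12.2% of all genes. Tap2 was at 13.4, 18.1 and 10.9 in IPA (limma, 0.34, adjusted p = 0.408). Array weights, which did not converge and gave 1 library a weight of 42.2, called 3 of 10 (Cd74, H2-D1 and Tap2), against 15.7%. No member had all 3 IPA libraries above all 3 PBS libraries, against 12.7% of all genes. Without IPA replicate 2 the estimates of B2m and H2-Aa were -0.095 and -0.094. The intervals over the 10 genes ran from 0.850-fold to 1.98-fold, so changes within that range cannot be told from none here.

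**Figure D3:**
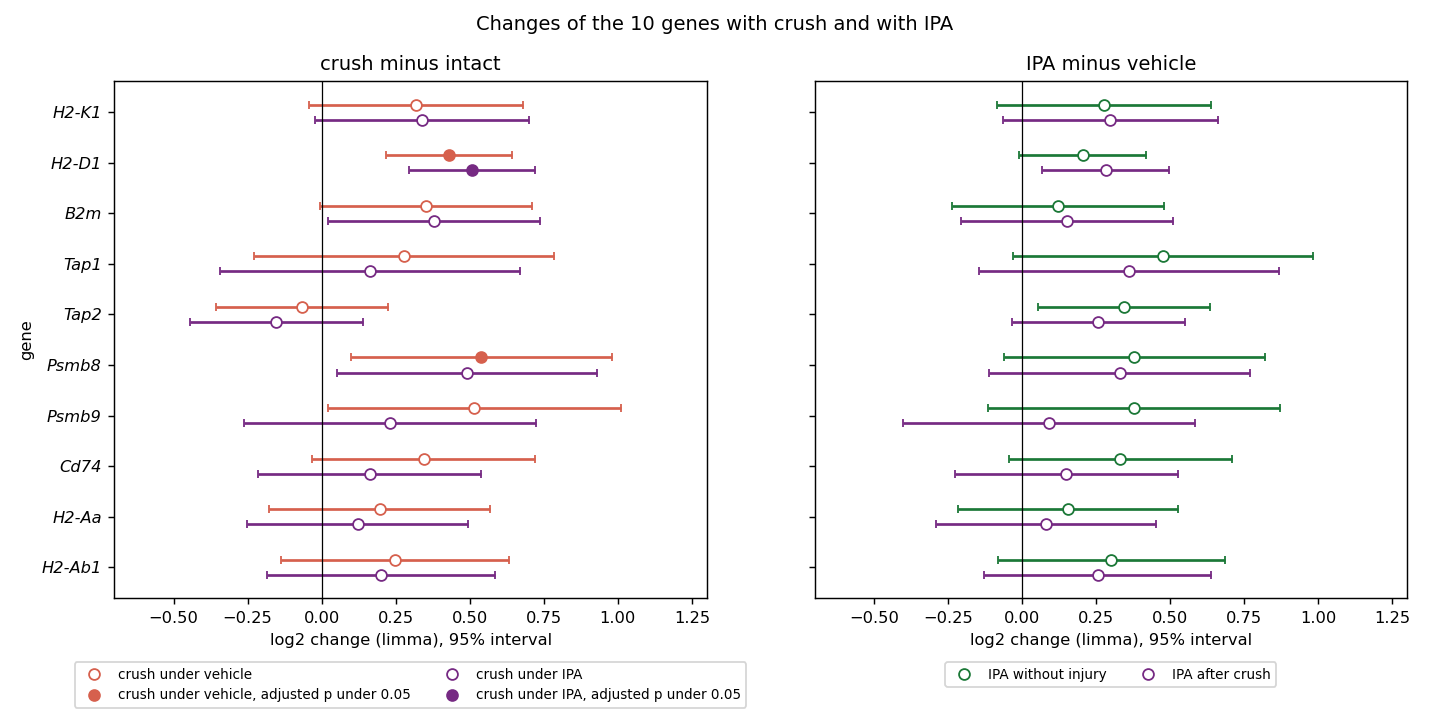
log2 change from limma with its 95% interval (x axis) for each of the 10 genes (y axis), crush minus intact on the left and IPA minus vehicle on the right; filled points have an adjusted p under 0.05. Filled points are H2-D1 in both crush comparisons and Psmb8 under vehicle, and none is filled on the right.

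After the crush, the 10 estimates for IPA were all above 0, from 0.082 (H2-Aa) to 0.36 (Tap1), where the median of all genes was -0.0021. These signs are not separate observations either. None was called by limma (adjusted p = 0.581 to 0.923, with 0% of all genes called), and edgeR and DESeq2 called 0 of 10. At an unadjusted p under 0.05 there was 1 of 10, H2-D1 (limma, 0.28, adjusted p = 0.581), against 8.06% of all genes. Array weights called H2-D1, H2-K1 and Tap2, against 13.7%. This comparison shares its PBS.SNC libraries with the crush comparison under vehicle. All 3 IPA.SNC libraries were above all 3 PBS.SNC libraries for 5 of 10 members, H2-K1, H2-D1, Tap2, Psmb8 and H2-Ab1, against 5.86% of all genes.

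H2-K1 was at 91.6, 102 and 112 in IPA.SNC, where the highest PBS.SNC library was at 85.9. Psmb8 was at 7.13, 8.02 and 9.22, and Tap2 at 10.99, 12.77 and 13.53. H2-Ab1 was at 23.8, 26.0 and 27.8. The lowest IPA.SNC library of each of these genes was only a little above the highest PBS.SNC library, which was 6.78 for Psmb8, 10.5 for Tap2 and 22.9 for H2-Ab1. Since the 10 genes moved together from library to library, these 5 are not separate observations.

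For the other 5 members the groups overlapped. B2m was at 124, 146 and 184, Tap1 at 8.98, 10.8 and 11.9, and Psmb9 at 3.43, 3.26 and 4.84. Cd74 was at 53.5, 54.8 and 64.3, and H2-Aa at 21.2, 24.3 and 28.8. Replicate 3 was the highest of the IPA.SNC group for 10 of 10 members, where it was the highest for 49.2% of all genes. The macrophage sum was 229, 234 and 280 in the same libraries, and its part in the order was not tested.

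The difference between the crush changes under IPA and under vehicle was tested directly as an interaction. It ran from -0.29 (Psmb9) to 0.078 (H2-D1), and limma called none of the 10 (adjusted p = 0.9997; 0% of all genes; unadjusted p under 0.05 for 0 of 10, against 2.1%). edgeR and DESeq2 also called 0 of 10. Over the 10 genes, the lowest end of an interval was -0.98 (Psmb9) and the highest was 0.60 (Tap1) on the log2 scale.

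Other genes of the class I pathway were compared for the crush under vehicle. Of 11 tested class I heavy chains and class I-like genes, 1 was higher, against 23.6% of all genes, and 0 were lower, with a median of 0.15. That one was Cd1d1, which presents lipids to natural killer T cells, at 4.41 ± 0.162 in PBS and 8.19 ± 0.704 in PBS.SNC (SD, n = 3; 0.82, adjusted p = 6.99e-06 by limma). H2-Q4 went from 6.00 ± 0.998 to 9.24 ± 1.27 and was not called (adjusted p = 0.0806). Of 10 genes for peptide supply and loading, 2 were higher, near the 23.6% of all genes: Psmb10, the third immunoproteasome subunit, at 0.35 (adjusted p = 0.0121), and Psme2, a proteasome activator, at 0.20 (adjusted p = 0.0419). Psmb10 was at 19.4 to 26.0 in PBS and 27.1 to 29.6 in PBS.SNC.

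Of 9 constitutive proteasome genes, the activator Psme3 among them, 5 were called higher under vehicle, against 23.6% of all genes, and 4 were not called. The median was 0.20, with Psma7 at 0.50 (adjusted p = 6.26e-07), Psmb4 at 0.32 (adjusted p = 0.000247) and Psmb6 at 0.30 (adjusted p = 2.97e-05). Under IPA 8 of 9 were called, against 21.2%, with a median of 0.23. The ratio of Psmb8 to Psmb5, the subunit it replaces, was 0.101 ± 0.010 in PBS, 0.139 ± 0.058 in IPA, 0.143 ± 0.013 in PBS.SNC and 0.171 ± 0.025 in IPA.SNC. Its lowest PBS.SNC library, at 0.134, was above the highest PBS library, at 0.111. Under IPA the groups overlapped, at 0.113, 0.205 and 0.0990 in IPA and 0.146, 0.169 and 0.197 in IPA.SNC. The ratio of Psmb9 to Psmb6 was 0.0192 ± 0.0016 in PBS, 0.0267 ± 0.0139 in IPA, 0.0238 ± 0.0022 in PBS.SNC and 0.0247 ± 0.0058 in IPA.SNC. Under vehicle the 3 crushed libraries, from 0.0215, were above the intact ones, up to 0.0209, while under IPA the groups overlapped. The ratio of Psmb10 to Psmb7 was 0.146 ± 0.0215 in PBS, 0.177 ± 0.0261 in IPA, 0.161 ± 0.0135 in PBS.SNC and 0.181 ± 0.0198 in IPA.SNC, with overlap throughout. No test was run on these ratios.

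For class II, 3 of 11 other genes were higher after the crush under vehicle, near the 23.6% of all genes, and none was lower. They act on the peptide side or on turnover: Ctss, the cathepsin that trims the invariant chain, at 1.67 (5.32 ± 0.745 to 17.96 ± 1.60, adjusted p = 2.61e-06), Ifi30, a lysosomal thiol reductase, at 0.69 (adjusted p = 0.00124), and March1, a ligase that removes class II from the surface, at 0.50 (adjusted p = 0.000822). H2-Eb1, a class II beta chain, went from 20.3 ± 2.77 to 24.7 ± 0.857 and was not called (adjusted p = 0.172). The median of this list was 0.15, and that of the 3 members was 0.25. Under IPA 4 were higher, against 21.2% of all genes, and 1 was lower, against 22.5%.

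Of 16 tested genes of the interferon gamma axis, 4 were higher after the crush under vehicle, near the 23.6% of all genes: Socs1, a feedback inhibitor, at 1.25 (adjusted p = 2.19e-05), Jak2 at 0.38 (adjusted p = 0.000853), Irf8 at 0.74 (adjusted p = 0.00766) and the receptor chain Ifngr2 at 0.18 (adjusted p = 0.0262). Ifng was listed at 0 in all 3 PBS.SNC libraries. None of 3 tested costimulation genes was called.

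Markers of the cells that carry class II, and of other cells, are given beside these values. Of all genes, 23.6% were called higher and 24.4% lower after the crush under vehicle. Of 14 macrophage markers, 13 were higher after the crush under vehicle, with a median of 1.51, and their summed value was 85.1 to 111 in PBS and 240 to 270 in PBS.SNC. Mrc1, the mannose receptor, was at 1.80 (adjusted p = 1.38e-08) and Cx3cr1, the fractalkine receptor, at 1.59 (adjusted p = 1.96e-07). Of 7 dendritic cell markers, 5 were higher, with Zbtb46 at 0.97 (adjusted p = 5.2e-08), and 1 was lower, Flt3 at -0.41 (adjusted p = 2.33e-05). Flt3 and Zbtb46 had PBS means of 25.6 and 9.79, while the other tested markers of this list had means of 0.229 to 0.755. Which cells express these 2 genes here was not tested. Of 3 B cell markers, Cr2 was higher and Cd79a lower. Neither of 2 tested T and NK cell markers was called. The summed value of all 10 T and NK cell markers, tested or not, was 2.22 to 2.69 in PBS and 2.595 to 3.381 in PBS.SNC. Most of that sum was Lck, with means of 1.23 in PBS and 1.64 in PBS.SNC, and Cd4, at 0.550 and 0.610. The highest of the untested markers was Nkg7, at 0.149 and 0.229. The part of all these cells in the changes of the 10 genes was not tested.

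The sum of Cd74, H2-Aa and H2-Ab1 divided by the macrophage sum was 0.797, 0.848 and 0.850 in PBS and 0.401, 0.382 and 0.363 in PBS.SNC. It was 0.824, 1.18 and 0.893 in IPA and 0.430, 0.449 and 0.431 in IPA.SNC. All 6 crushed libraries were below all 6 intact ones, but the divisor itself rose with the crush. Under vehicle the macrophage sum was 85.1 to 111 intact and 240 to 270 crushed. The sum of the 3 class II genes was 67.8 to 94.4 intact and 90.0 to 103 crushed. The ratio is therefore no measure of class II RNA per macrophage. For the 7 class I members the same ratio was 3.99 ± 0.226 in PBS, 4.37 ± 0.471 in IPA, 1.95 ± 0.115 in PBS.SNC and 2.38 ± 0.114 in IPA.SNC (SD, n = 3). No test was run on these ratios. Under vehicle, satellite glia and Schwann markers had 2 higher and 1 lower of 9, and endothelial markers 1 higher of 7. Sensory neuron markers had 1 higher and 9 lower of 12. Of all genes, 23.6% were higher and 24.4% lower in that comparison.

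**Figure D4:**
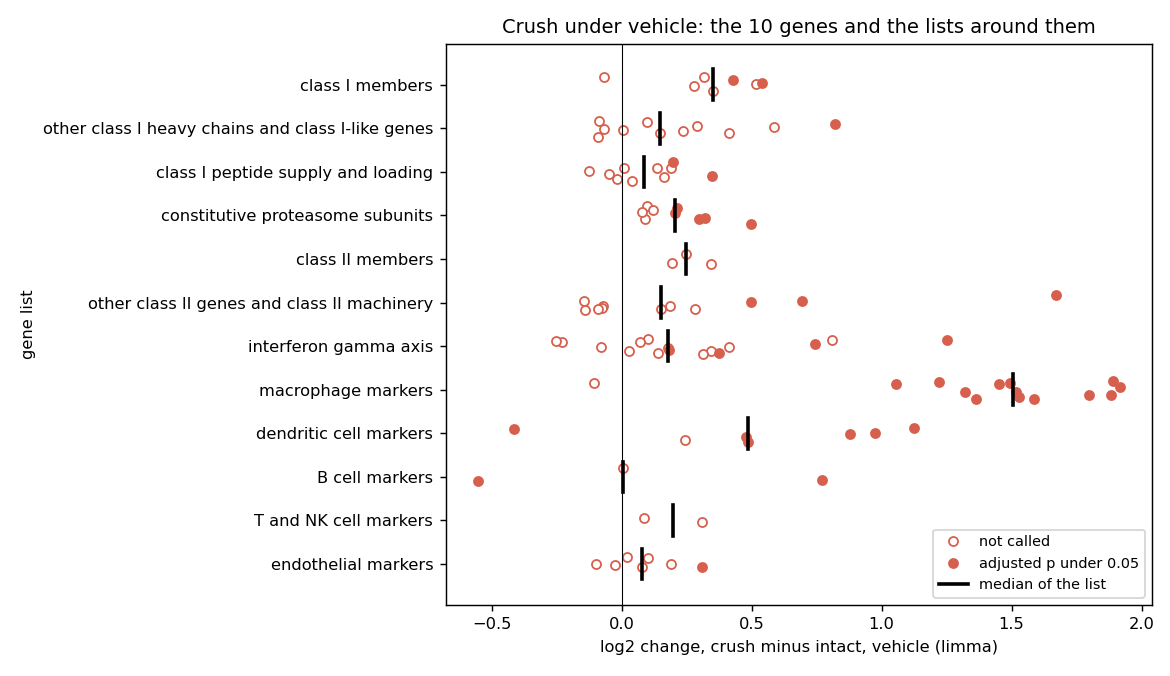
log2 change with crush under vehicle (x axis, limma) of every tested gene in 12 lists (y axis); filled points have an adjusted p under 0.05 and the black bar is the median of the list. The class I and class II members have medians of 0.35 and 0.25, while 13 of 14 macrophage markers are filled, with a median of 1.51. Of all genes tested, 23.6% were called higher.

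The 10 genes varied together within groups. Over 12 libraries, the deviations of log2 values from the group means had Pearson correlations of 0.711 or more in all 45 pairs of members, with a median of 0.908, and of 0.963 in the 3 class II pairs. These points share library and depth, and IPA replicate 2 is the most distant of them. Of 14020 genes ranked, those close to the mean of the class I members included Csf2rb2 (0.991), a cytokine receptor chain, Gbp2 (0.968), H2-Eb1 (0.960) and H2-Q4 (0.958). Closest to the class II members were H2-Eb1 (0.984), Spon2 (0.973), Gbp2 (0.969), Nudt13 (0.968) and H2-T23 (0.955).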

How the data were processed

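Per the labels' protocols, poly(A)-selected DRG RNA went into directional libraries sequenced as paired reads of 75 bases. Tools named in the submitters' processing notes were STAR 2.7.0, limma 3.38.3 and edgeR 3.24.3, with the build mm10 and no roles stated. The counter is not given in the sources used here, nor is the annotation. The authors titled their deposited table FPKM, yet it held CPM-like values: all values of a library (100.0%) were whole multiples of 1 step within 1e-06, from which whole reads were recovered. The members and all gene lists were chosen with earlier results of these data known.

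Genes with a value of at least 0.5 in 3 or more of 12 libraries (15603) were tested with limma 3.58.1 (R 4.3.3; trend, 1 mean a group, 8 residual degrees of freedom) on log2(value + 0.5), which understates changes of low genes. The model was checked on simulated data. Alternatives included count tests on the recovered reads (DESeq2 1.42.0 and the quasi-likelihood test of edgeR 4.0.16), and other pseudocounts, filters, scalings and samples. Named genes were the 10 members, up to 4 genes a list by smallest p in the crush comparison under vehicle, and the 5 genes with the closest deviations; list genes below the filter may be given as values. Others are marked as chosen after their values were seen, and 1 gene is not reported here. Of the listed IDs, 36588 were in GENCODE M21; H2-L was not matched.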

Additional observations from a re-analysis of the deposited data

How the results depend on the processing

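Over 26 alternatives, H2-D1 kept its call with crush in both comparisons. The number of members called with crush under vehicle was 2, and 1 with no filter, with a replicate block, by edgeR or with the GC and length trend removed; it was 6 with only the 6 libraries compared or with IPA replicate 2 and IPA.SNC replicate 3 both left out, and 1 to 6 when each library was left out. It was 1 without PBS replicate 2, any PBS.SNC library or IPA.SNC replicate 2. Under IPA it was 1, with 4 by array weights, 6 with both libraries left out and 1 to 9 when each was left out. Array weights called 3 members in each IPA comparison; the weights ran from 0.146 to 42.2. Replicate numbers were shared by the groups, but same-numbered libraries did not deviate together (0.127, -0.219 and 0.205 with crush under vehicle), and the block changed no member's call but Psmb8 (adjusted p = 0.0603).

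With both libraries left out, the IPA estimates without injury were -0.095 for B2m and -0.094 for H2-Aa, those after crush -0.065 for Psmb9 and -0.030 for H2-Aa, and the interactions 0.16 for Tap1, 0.041 for Tap2, 0.17 for Psmb8, 0.065 for H2-Aa and 0.17 for H2-Ab1. Array weights gave -0.030 for Psmb9 after crush, and interactions of -0.0040 for H2-K1 and 0.070 for Psmb8. The H2-K1 interaction was -0.018 by edgeR and -0.0095 by DESeq2, and that of H2-Ab1 0.0011 with the GC and length trend removed. Leaving out each library in turn gave crush estimates under IPA of -0.0088 to 0.41 for Cd74, -0.031 to 0.37 for H2-Aa, -0.022 to 0.57 for Psmb9, -0.12 to 0.53 for Tap1 and -0.32 to 0.034 for Tap2. It gave IPA estimates of -0.095 to 0.29 for B2m and -0.094 to 0.31 for H2-Aa without injury, and of -0.030 to 0.19 for H2-Aa and -0.065 to 0.19 for Psmb9 after crush. The interaction ran from -0.14 to 0.25 for B2m, -0.35 to 0.064 for Cd74, -0.23 to 0.18 for H2-Aa, -0.23 to 0.23 for H2-Ab1, -0.023 to 0.20 for H2-D1, -0.18 to 0.28 for H2-K1, -0.24 to 0.26 for Psmb8, -0.54 to 0.056 for Psmb9, -0.39 to 0.25 for Tap1 and -0.25 to 0.10 for Tap2. The cause of these shifts was not tested. Groups of 3 libraries limit the precision, as does depth for Psmb9, with 109 reads in its lowest library.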
